A study of Homo sapiens with 8 samples.

Results

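NRF2 is the transcription factor that switches on genes for glutathione supply, thiol repair, quinone reduction and heme breakdown when cells meet oxidants or electrophiles. Its mRNA is the product of NFE2L2. At rest the adaptor KEAP1 hands the NRF2 protein to a CUL3 ubiquitin ligase for destruction, and when cysteines of KEAP1 are modified the protein builds up, pairs with small MAF proteins and binds antioxidant response elements. NRF2 is thus known to be governed largely at the protein level, and in endothelium it is known for its response to steady laminar flow.

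The 10 genes described here were taken by symbol from a table of 34415 genes and comprise NFE2L2, KEAP1 and 8 genes known as NRF2 targets: HMOX1, NQO1, GCLM, GCLC, TXNRD1, SRXN1, SLC7A11 and AKR1B10. All 10 symbols were in the table. The study sequenced RNA from 8 samples of TeloHAEC, an immortalised line that began as human aortic endothelial cells, of genotype WT. There were 4 estradiol libraries (palmitic acid and estradiol supplied) and 4 control libraries (palmitic acid supplied), and the question was what the hormone does in medium meant to resemble an atherosclerosis-prone setting. Sample titles name palmitic acid for all 8. The treatment field instead reads Control for the control samples and PA-supplied for the estradiol samples. The titles were followed, and if that field were right the effects of estradiol and of palmitic acid could not be told apart. The sources used here give neither doses nor exposure times. Nothing in the labels says whether replicates came from separate cultures, so the p-values measure the spread between these samples, which may be technical. In bulk RNA, fewer cells of a kind and less RNA per cell cannot be told apart.

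Levels are given in FPKM, fragments scaled to gene length and library size, which allows levels of different genes to be compared per length. These values are not adjusted for GC content, so comparisons between genes can shift with it. Between 33421051 and 39899258 reads per library lay in genes. Of 11 endothelial markers, 10 had a mean of at least 1 FPKM, and their summed level was 488.9 to 638.3 FPKM in estradiol libraries and 486.9 to 673.7 FPKM in control libraries. VWF, a defining endothelial gene, was nearly absent, at up to 0.362 FPKM. Markers of other cells were mostly low: 2 of 7 macrophage markers (CD68 and LAPTM5), 1 of 9 fibroblast and smooth muscle markers (ACTA2) and 3 of 6 epithelial markers (KRT19, KRT7 and CLDN7) had a mean of at least 1 FPKM. The summed macrophage markers stood at 81.8 to 94.0 FPKM in estradiol libraries and 78.8 to 96.5 FPKM in control libraries. The fibroblast and smooth muscle sum was 9.40 to 13.1 FPKM in estradiol libraries and 9.99 to 13.5 FPKM in control libraries, and the epithelial sum was 53.4 to 74.6 FPKM in estradiol libraries and 53.5 to 81.1 FPKM in control libraries. Estradiol replicate 4 and control replicate 3 stood apart from the other 6 libraries on the first principal component, which held 68.7% of the variance over all tested genes. Each of the 10 genes is therefore given with and without these libraries, and the gene lists around them by their medians.

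Letters that match the core of the element through which NRF2 acts are shown here, for genes of the set with a match close to a start site. RefSeq promoter windows on GRCh38.p14, from 250 bases before to 50 bases after each start, were found for 7 of the 10 genes, and not for HMOX1, SLC7A11 or AKR1B10. The core TGACNNNGC was searched on both strands. It was found in windows of 3 genes, GCLM, TXNRD1 and KEAP1, and it occurs in 13.3% of all 35116 windows. NFE2L2, KEAP1 and TXNRD1 had 2 windows each, so the count of genes and the share of windows are not in the same unit. With an A directly after it the core occurs in 3.2% of all windows, and 1 match in each of these 3 genes had that longer form. Those matches are printed 5′ to 3′ with the core in capitals.

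GCLM, chr1:93909441-93909479, plus strand, gene on the minus strand: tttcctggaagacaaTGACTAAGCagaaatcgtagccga
KEAP1, chr19:10502779-10502817, plus strand, gene on the minus strand: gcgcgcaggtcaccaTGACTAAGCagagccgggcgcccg
TXNRD1, chr12:104286915-104286953, minus strand, gene on the plus strand: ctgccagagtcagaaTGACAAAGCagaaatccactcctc

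GCLM and KEAP1 carried the same core, TGACTAAGC, on the strand opposite to the gene. Counted along the gene, the GCLM core began 34 bases and the KEAP1 core 31 bases before the start. The TXNRD1 core shown lay inside the second of 2 windows and began 102 bases before the start site of that window. TXNRD1 had a further 2 matches without the A in its other window, with the cores TGACTTCGC and TGACGGAGC, and KEAP1 had another, TGACACGGC, that did not overlap the one shown. The windows of NFE2L2, NQO1, GCLC and SRXN1 did not hold these letters. Sequence outside the windows was not searched, so elements further from the start would be missed. A match is a description of the letters and not a measured binding site.

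No difference between estradiol and control libraries passed the test for any of the 10 genes. By limma on log2(FPKM + 1), with Benjamini-Hochberg adjustment over the 10720 genes with a mean of at least 1 FPKM, 0 of 10 members were called at an adjusted p under 0.05 (adjusted p = 0.999989 for each), against 0% of all genes tested. At an unadjusted p under 0.05 there were 0 members and 26 genes in all (0.243%). limma-voom on recovered reads also called 0 members and 0 genes, with 22 genes at an unadjusted p under 0.05. Both counts are below the share of 0.05 that this threshold would give if nothing differed. With a batch term for estradiol replicate 4 and control replicate 3, 198 genes were higher and 153 lower at that level. The lack of calls thus does not show that nothing changed. The groups overlapped for 10 of 10 members, whereas 57 genes (0.532%) had groups that did not. The median log2 fold change was -0.00036 over the members, with 5 of 10 positive, and -0.00047 over all genes tested.

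**Figure D1:**
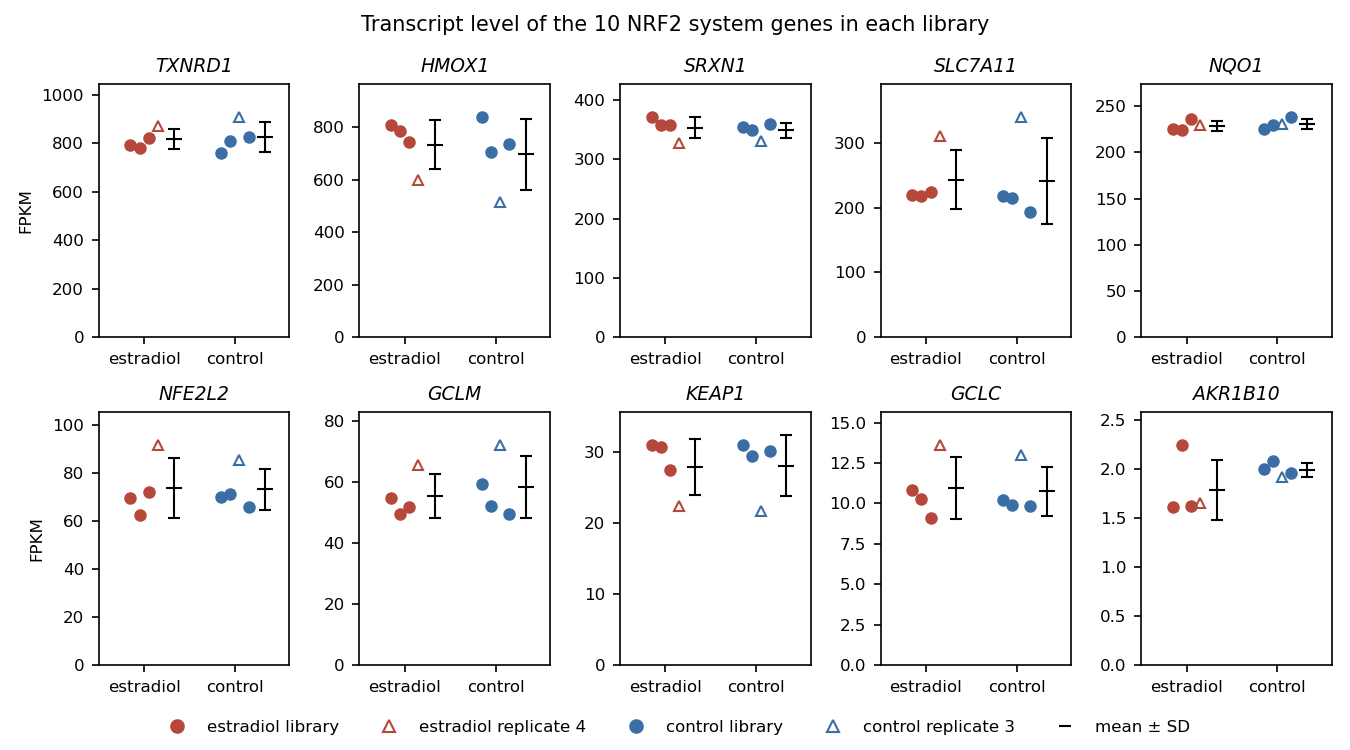
Level of each gene in FPKM (linear axes from 0, one panel per gene, ordered by mean level), with a point per library, the estradiol group left of the control group, and black bars for mean ± SD (n = 4). Open triangles mark estradiol replicate 4 and control replicate 3, which lie on the same side of their groups for 8 of the 10 genes, while the 2 groups overlap in every panel.

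NFE2L2, which encodes NRF2 itself, was well expressed. It stood at 69.5, 62.4, 72.0 and 91.6 FPKM in estradiol replicates 1 to 4 and at 69.95, 71.4, 85.4 and 65.9 FPKM in control replicates 1 to 4. The highest value of each group was in the library that stood apart, estradiol replicate 4 and control replicate 3. Means were 73.9 ± 12.5 FPKM with estradiol and 73.2 ± 8.47 FPKM in control (SD, n = 4 each), and the log2 fold change was 0.01 ± 0.13 SE, with a 95% interval from -0.29 to 0.30. Without these libraries the means were 67.9 ± 4.98 FPKM with estradiol and 69.1 ± 2.84 FPKM in control (SD, n = 3 each).

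KEAP1, the cysteine-rich sensor that holds NRF2 in check, was lower than NFE2L2 in 8 of 8 libraries. Its levels were 30.9, 30.7, 27.5 and 22.4 FPKM in estradiol replicates 1 to 4 and 30.9, 29.5, 21.7 and 30.2 FPKM in control replicates 1 to 4. Here the libraries that stood apart were the lowest of their groups, opposite to NFE2L2. The log2 fold change was -0.01 ± 0.14 SE, with a 95% interval from -0.32 to 0.31. Without estradiol replicate 4 and control replicate 3 it averaged 29.7 ± 1.94 FPKM with estradiol and 30.2 ± 0.728 FPKM in control (SD, n = 3 each). The NFE2L2 to KEAP1 ratio of levels, described after the values were seen and not tested, was 2.03 to 2.62 in the other 6 libraries, 4.09 in estradiol replicate 4 and 3.94 in control replicate 3.

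HMOX1 encodes heme oxygenase-1, the inducible enzyme that splits heme into biliverdin, carbon monoxide and iron. It was among the most abundant of the set, at 808, 788, 743 and 599 FPKM in estradiol replicates 1 to 4 and 838, 707, 514 and 735 FPKM in control replicates 1 to 4. The highest and the lowest value were both in control libraries. Means were 734 ± 94.1 FPKM with estradiol and 699 ± 135 FPKM in control, and the log2 fold change of 0.08 ± 0.16 SE was the highest of the 10 genes, with a 95% interval from -0.26 to 0.43. Without estradiol replicate 4 and control replicate 3 the means were 779 ± 33.3 FPKM with estradiol and 760.2 ± 68.9 FPKM in control (SD, n = 3 each). After removal of each library's trend with GC content, the log2 fold change of HMOX1 was 0.11 ± 0.05 SE (limma unadjusted p = 0.0456, adjusted p = 0.999952). In that fit 110 genes were higher and 113 lower at an unadjusted p under 0.05, of 10250 tested. HMOX2, the constitutive heme oxygenase, was far lower: HMOX1 stood 27.7 to 29.4 times above it in estradiol libraries and 25.5 to 29.5 times in control libraries.

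NQO1, a quinone reductase and a standard readout of NRF2, had the lowest coefficient of variation of the set over the 8 libraries. It measured 225, 224, 236 and 230.0 FPKM in estradiol replicates 1 to 4 and 225, 230.2, 231 and 238 FPKM in control replicates 1 to 4. Estradiol replicate 4 and control replicate 3 lay inside the range of the other 6 libraries for this gene. That coefficient was 2.195%, against a median of 13.6% over the members and 14.2% over all genes tested. In the other 6 libraries it was 2.59% for NQO1 and lower, at 1.905%, for SRXN1. The log2 fold change was -0.01 ± 0.07 SE, with a 95% interval from -0.17 to 0.15, which was the narrowest of the 10 in the fit without a batch term. Without estradiol replicate 4 and control replicate 3 it averaged 229 ± 6.51 FPKM with estradiol and 231 ± 6.49 FPKM in control (SD, n = 3 each).

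The genes of glutathione supply differed widely in level. SLC7A11, the light chain of the cystine importer, measured 219.9, 218, 224 and 311 FPKM in estradiol replicates 1 to 4 and 218, 215, 339.7 and 193 FPKM in control replicates 1 to 4. The libraries that stood apart were far above the rest of their groups in this gene, with the widest departures among the 10 members. Its log2 fold change was 0.03 ± 0.19 SE, and its 95% interval, -0.39 to 0.44, was the broadest of the 10. Without these libraries it averaged 220.5 ± 3.26 FPKM with estradiol and 209 ± 13.4 FPKM in control (SD, n = 3 each).

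GCLC and GCLM encode the catalytic and the modifier subunit of glutamate-cysteine ligase, which makes the first bond of glutathione. GCLM measured 54.8, 49.3, 51.7 and 65.6 FPKM in estradiol replicates 1 to 4 and 59.3, 52.1, 72.0 and 49.4 FPKM in control replicates 1 to 4 (log2 fold change -0.06 ± 0.14 SE). GCLC measured 10.9, 10.3, 9.10 and 13.6 FPKM in estradiol replicates 1 to 4 and 10.2, 9.93, 12.99 and 9.81 FPKM in control replicates 1 to 4 (log2 fold change 0.02 ± 0.13 SE). Both were highest in the library of each group that stood apart. Without these libraries GCLM averaged 51.9 ± 2.74 FPKM with estradiol and 53.6 ± 5.14 FPKM in control, and GCLC 10.1 ± 0.894 FPKM with estradiol and 9.99 ± 0.22 FPKM in control (SD, n = 3 each). The ratio of GCLM to GCLC levels was 4.80 to 5.68 in estradiol libraries and 5.03 to 5.80 in control libraries. In this ratio estradiol replicate 4, at 4.82, and control replicate 3, at 5.54, lay inside the range of the other 6.

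TXNRD1 and SRXN1 serve thiol repair: the first encodes cytosolic thioredoxin reductase and the second sulfiredoxin, which restores over-oxidised peroxiredoxins. TXNRD1 measured 794, 783, 821 and 873 FPKM in estradiol replicates 1 to 4 and 760.4, 811, 907 and 827 FPKM in control replicates 1 to 4 (log2 fold change -0.01 ± 0.08 SE). SRXN1 measured 371, 358, 357 and 328 FPKM in estradiol replicates 1 to 4 and 354, 350.1, 331 and 359 FPKM in control replicates 1 to 4 (log2 fold change 0.02 ± 0.08 SE). Both varied little, with coefficients of variation of 5.84% and 4.15% over the 8 libraries. In the 6 libraries without estradiol replicate 4 and control replicate 3, TXNRD1 averaged 799 ± 19.5 FPKM with estradiol and 799.7 ± 34.9 FPKM in control, and SRXN1 362 ± 7.47 FPKM with estradiol and 354 ± 4.27 FPKM in control (SD, n = 3 each). TXNRD1 stood 33.2 to 55.1 times above TXNRD2, the mitochondrial reductase, in estradiol libraries and 33.6 to 54.6 times in control libraries. The highest ratios were those of estradiol replicate 4 (55.1) and control replicate 3 (54.6), and the other 6 libraries lay at 33.2 to 41.1.

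AKR1B10, an aldo-keto reductase that reduces aldehydes and retinal, was the lowest of the set and rested on 167 to 218 reads per library. It measured 1.61, 2.24, 1.63 and 1.65 FPKM in estradiol replicates 1 to 4 and 2.00, 2.08, 1.92 and 1.95 FPKM in control replicates 1 to 4. In 3 estradiol libraries it was below every control library, and in estradiol replicate 2 it was above every control library. Means were 1.78 ± 0.307 FPKM with estradiol and 1.99 ± 0.0692 FPKM in control, and the log2 fold change was -0.11 ± 0.09 SE on the FPKM + 1 scale, which understates changes at this level. Without estradiol replicate 2 the log2 fold change was -0.18, with a 95% interval from -0.36 to -0.0088 (limma unadjusted p = 0.0416, adjusted p = 0.999559). In that fit 9 genes were higher and 18 lower at an unadjusted p under 0.05, of 10720 tested. That library held the only estradiol value above every control library. Leaving it out thus moved the interval by choice, and nothing is read from it. Without estradiol replicate 4 and control replicate 3 AKR1B10 averaged 1.83 ± 0.36 FPKM with estradiol and 2.01 ± 0.0621 FPKM in control (SD, n = 3 each). Its relative AKR1B1, aldose reductase, measured 125 ± 20.1 FPKM with estradiol and 124 ± 11.7 FPKM in control. The closer copy AKR1B15 had 0 to 2 reads per library. How reads shared between such copies were assigned is not stated in the labels, so the level of AKR1B10 is uncertain.

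The intervals bound how large an estradiol effect could be in these libraries on the FPKM + 1 scale. Over the 10 genes the 95% limits of the fold change of FPKM + 1, without a batch term, ran from 0.766 to 1.36, both for SLC7A11. For AKR1B10 that scale shrinks changes, so its limits there are too narrow. Its log2 interval was -0.49 to 0.14 by limma-voom on recovered reads and -0.45 to 0.13 with a pseudocount of 0.1. With a batch term for estradiol replicate 4 and control replicate 3, the median SE of the members was 0.0535, against 0.131 without it, and 0 of 10 members passed (limma adjusted p = 0.999956 for each). In that fit the HMOX1 interval was -0.06 to 0.23 and the SLC7A11 interval -0.09 to 0.15 on the log2 scale. Intervals of that fit may be too narrow, since the labels name no batch. The term was set after these values singled out estradiol replicate 4 and control replicate 3. In the 6 libraries without these 2, 0 of 10 members had groups that did not overlap, while 4.60% of all tested genes were separated as higher and 4.93% as lower with estradiol. With so few libraries per group such separation also arises often by chance, so these shares are not read as an effect of estradiol.

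**Figure D2:**
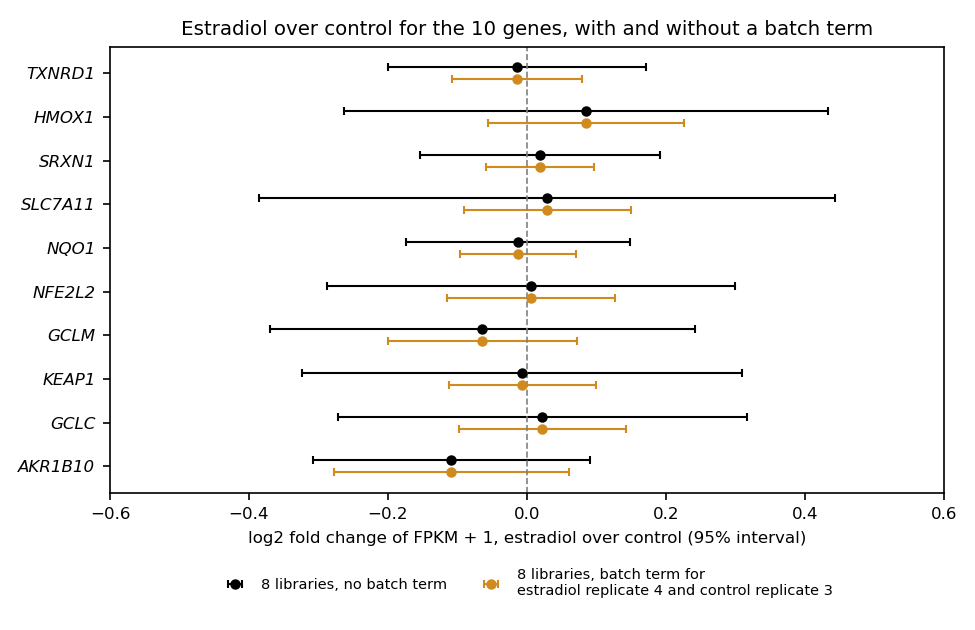
Log2 fold change of FPKM + 1, estradiol over control (x axis), with 95% intervals for each gene (rows, ordered by mean level), from the fit without a batch term (black) and with a batch term for estradiol replicate 4 and control replicate 3 (orange). Every interval of both fits includes 0, and the orange intervals are narrower for each of the 10 genes.

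The set spanned more than 2 orders of magnitude in level per length. Mean levels over the 8 libraries ran in the order TXNRD1 (822 FPKM), HMOX1 (717), SRXN1 (351), SLC7A11 (242), NQO1 (230.0), NFE2L2 (73.5), GCLM (56.8), KEAP1 (28.0), GCLC (10.9) and AKR1B10 (1.89). Most neighbours in this order kept it in every library. TXNRD1 was above HMOX1 in 5 of 8 libraries, so this pair was not ordered beyond its spread, and SRXN1 was above SLC7A11 in 7 of 8. SLC7A11 was above NQO1 in 2 of 8 libraries, estradiol replicate 4 and control replicate 3, and their order turned without them: in the other 6, NQO1 lay at 224.5 to 237.9 FPKM and SLC7A11 at 193.4 to 223.98 FPKM, with no overlap. Against all genes tested, whose median level was 8.84 FPKM, 9 of the 10 lay above the median and 5 were in the top 5%. TXNRD1 and HMOX1 were in the top 1%, with 0.41% and 0.494% of tested genes above them.

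The widest differences within the set lay between libraries and not between the groups. NFE2L2, GCLM, GCLC, SLC7A11 and TXNRD1 were higher in both estradiol replicate 4 and control replicate 3 than in any of the other 6 libraries, and KEAP1, HMOX1 and SRXN1 were lower in both. Of all tested genes, 34.6% were higher in both and 43.9% lower in both, so 5 and 3 of 10 members are close to what the whole table gave. The coefficient of variation over the members had a median of 13.6% in 8 libraries and 5.21% in the other 6, and over all tested genes 14.2% and 6.26%.

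Direction within the set ran with the GC content of the transcripts. The 5 genes that were high in these libraries had a GC content from 38.6% (SLC7A11) to 46.6% (TXNRD1), and the 3 that were low had 53.6% (SRXN1), 60.8% (HMOX1) and 62.1% (KEAP1). NQO1 lay between, at 48.2%, close to the median of 49.5% over the tested genes. On the log2(FPKM + 1) scale SLC7A11 departed from its median over the 8 libraries by 0.51 in estradiol replicate 4 and 0.63 in control replicate 3, and KEAP1 by -0.40 in estradiol replicate 4 and -0.44 in control replicate 3. AKR1B10 was the exception, with a GC content of 44.1% and departures of -0.15 in estradiol replicate 4 and -0.01 in control replicate 3. Over all genes the rank correlation of a library's departure with GC content was -0.847 in estradiol replicate 4 and -0.861 in control replicate 3, and between -0.355 and 0.64 in the other 6 (across genes, not across samples). The labels name no batch, and the part of GC content in these differences was not tested. The fit with the GC trend removed compared estradiol with control, and 0 members passed in it.

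**Figure D3:**
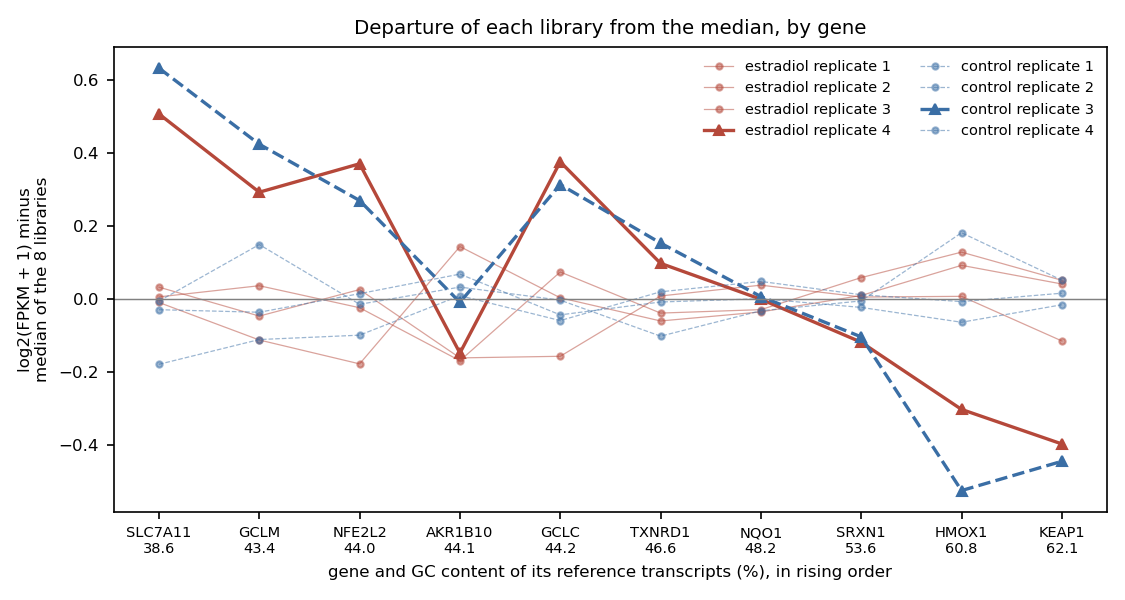
Departure of each library from the gene's median over the 8 libraries, in log2(FPKM + 1) (y axis), for the 10 genes in rising order of transcript GC content (x axis, in %). Estradiol replicate 4 (solid line, triangles) and control replicate 3 (dashed line, triangles) run from about 0.5 to 0.6 at SLC7A11 to about -0.4 at KEAP1, while the other 6 libraries depart by at most 0.18.

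The wider NRF2 system was described with 6 lists of genes around the members. Of 76 listed genes, 65 were tested, and limma called 0 in either direction (adjusted p under 0.05), with 0 at an unadjusted p under 0.05 and 0 whose groups did not overlap over the 8 libraries. The 3 genes with the highest mean level in each list are given as values.

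NRF2 partners and regulators lay close to 0, with a median log2 fold change of 0.01 over 15 tested genes, 9 of them positive. SQSTM1, the autophagy receptor p62 that can draw KEAP1 away from NRF2, stood at 873 ± 113 FPKM with estradiol and 855 ± 139 FPKM in control. NFE2L1, a related factor, stood at 147 ± 17.1 FPKM with estradiol and 149.8 ± 18.7 FPKM in control, above NFE2L2 in 8 of 8 libraries. The ratio was 1.33 to 2.55 in estradiol libraries and 1.43 to 2.43 in control libraries. Its lowest values were those of estradiol replicate 4 (1.33) and control replicate 3 (1.43), and the other 6 libraries lay at 2.08 to 2.55. MAFF, a small MAF partner, stood at 54.0 ± 10.4 FPKM with estradiol and 54.2 ± 7.78 FPKM in control (SD, n = 4 each).

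The thiol systems also had medians close to 0. The glutathione and cystine list had a median log2 fold change of -0.01 over 15 tested genes, 7 of them positive. SLC3A2, the heavy chain that pairs with SLC7A11, stood at 939 ± 162 FPKM with estradiol and 914 ± 113 FPKM in control, GSTP1, a glutathione transferase, at 345 ± 55.3 FPKM with estradiol and 348 ± 51.4 FPKM in control, and GPX1, a glutathione peroxidase, at 162 ± 25.9 FPKM with estradiol and 162 ± 31.0 FPKM in control (SD, n = 4 each). The thioredoxin and peroxiredoxin list had a median of -0.01 over 11 tested genes, 5 of them positive. TXN, thioredoxin, stood at 400.1 ± 31.1 FPKM with estradiol and 396 ± 15.8 FPKM in control, PRDX1, a substrate of sulfiredoxin, at 321 ± 17.6 FPKM with estradiol and 309 ± 24.5 FPKM in control, and PRDX5 at 227 ± 50.6 FPKM with estradiol and 211 ± 16.8 FPKM in control. SRXN1 and PRDX1 were close in level, with a ratio of 1.05 to 1.18 in estradiol libraries and 1.05 to 1.245 in control libraries.

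The other 3 lists had medians below 0, and none of their genes passed. The NADPH supply list had a median log2 fold change of -0.05, with 0 of 6 genes positive. TALDO1 and TKT, of the pentose phosphate pathway, stood at 432 ± 62.9 and 167 ± 18.9 FPKM with estradiol and at 442 ± 56.4 and 180.0 ± 32.8 FPKM in control, and PGD at 366 ± 52.9 FPKM with estradiol and 372 ± 45.9 FPKM in control. Its median was -0.02 without control replicate 1, -0.02 without estradiol replicate 4 and -0.13 without control replicate 3. Heme and iron genes had a median of -0.04 over 8 tested genes, 3 of them positive. FTH1 and FTL, the ferritin chains that store iron, stood at 5558 ± 521 and 4585 ± 571 FPKM with estradiol and at 5681 ± 789 and 4881 ± 765 FPKM in control, and BLVRB, a biliverdin reductase, at 59.6 ± 8.80 FPKM with estradiol and 59.6 ± 9.72 FPKM in control. Both ferritin genes have many processed copies, so their levels are uncertain. The median of this list turned to 0.07 without estradiol replicate 4 and to 0.01 without control replicate 1, and was -0.13 without control replicate 3.

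Other NRF2 target enzymes had a median log2 fold change of -0.05 over 10 tested genes, of which 1, PIR, was positive. Besides AKR1B1, the most abundant were UGDH, which makes UDP-glucuronate, at 94.6 ± 5.11 FPKM with estradiol and 98.5 ± 5.58 FPKM in control, and TRIM16, at 61.0 ± 7.30 FPKM with estradiol and 61.4 ± 6.82 FPKM in control (SD, n = 4 each). The median turned to 0.02 without estradiol replicate 4 and to 0.00 without control replicate 1, and was -0.14 without control replicate 3. With both estradiol replicate 4 and control replicate 3 left out, the medians were 0.01 for partners and regulators, -0.0024 for glutathione and cystine, -7.3e-05 for thioredoxin and peroxiredoxin, -0.05 for NADPH supply, -0.05 for heme and iron and -0.06 for these enzymes. Over the alternatives the medians of the first 3 lists also took both signs, from -0.06 to 0.06 for partners and regulators, -0.06 to 0.04 for glutathione and cystine and -0.05 to 0.04 for thioredoxin and peroxiredoxin.

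**Figure D4:**
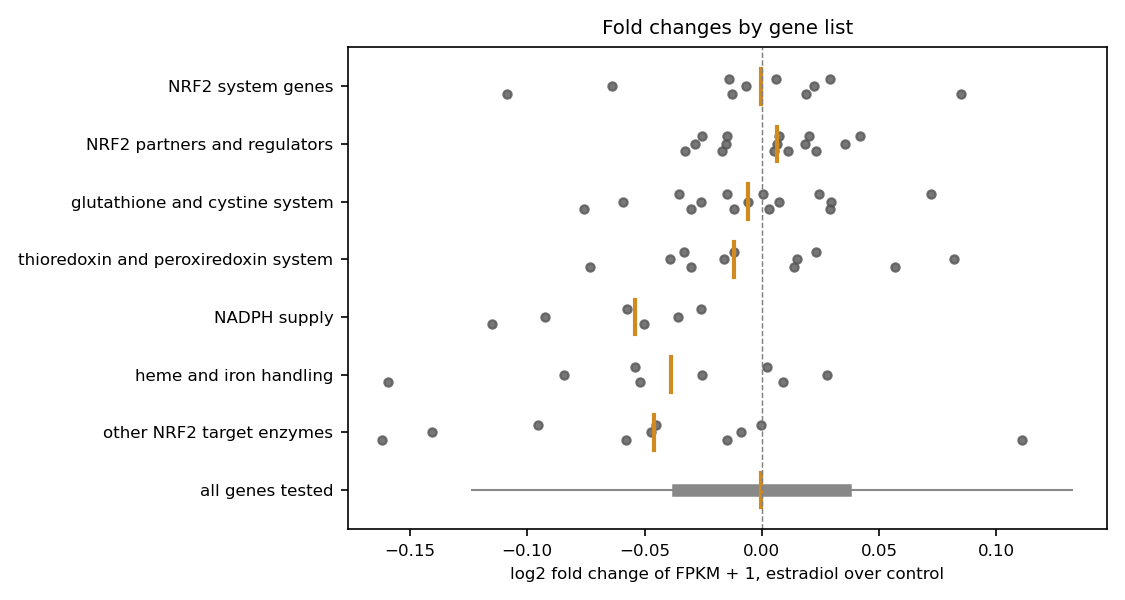
Log2 fold change of FPKM + 1, estradiol over control (x axis), for each tested gene (grey points) of the 10 NRF2 system genes and of 6 lists around them, with the list median as an orange bar. The bottom row gives all 10720 tested genes (thick bar for the middle 50%, -0.04 to 0.04; thin line for the middle 95%, -0.12 to 0.13), and no gene of any list passed the test.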

How the data were processed

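The authors deposited one table of FPKM values per gene symbol and library. Per the submitters' processing notes, fastp 0.20.1 and HTSeq were used; the labels name no aligner, genome build, annotation or strand setting. All sample columns were used, and groups came from sample titles. From the steps between FPKM values 100.0% of 152348 values above 0 were recovered as whole reads within a relative tolerance of 1e-06. Members rested on 167 to 145014 reads per library.

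Genes with a mean of at least 1 FPKM were tested, two-sided and without a block, by limma (version 3.58.1, R 4.3.3, trended variance) on log2(FPKM + 1). FPKM values are not counts, so count models served as alternatives alone. Fold changes are on that scale. The fit was tested on simulated data with independent noise in each library. Those data lack the variation that estradiol replicate 4 and control replicate 3 share here. The simulation thus does not show how well the fit finds changes in these libraries. GC content is the median over GENCODE 29 transcripts of a gene, for 95.6% of tested genes. Python 3.11.15 was used otherwise. Alternatives covered the pseudocount, filter, scaling, trend, block, batch term, GC trend, recovered reads and left-out libraries. The members, lists and alternatives were chosen with earlier results of these data known. Named genes were all members, the 3 with the highest mean level in each list (or, past the threshold, up to 4), and AKR1B1 and AKR1B15; PIR, the genes named in ratios and those under Other observations were chosen after their values were seen. The values of 1 list gene are not reported here.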

Additional observations from a re-analysis of the deposited data

Results flagged for a closer look

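In groups of 4 libraries, a value was flagged when its gap to the nearest library, over the range of its group, passed Dixon's 95% critical value. Of 56 groups (28 genes, AKR1B15 left aside) 8 values were flagged, where chance flags about 1 in 20 groups, and 7 of the 8 were in estradiol replicate 4 or control replicate 3. SLC7A11 stood at 311 FPKM in estradiol replicate 4 (others 218 to 224) and at 339.7 FPKM in control replicate 3 (others 193 to 218). GCLC stood at 12.99 FPKM in control replicate 3 (others 9.81 to 10.2) and KEAP1 at 21.7 FPKM (others 29.5 to 30.9). GSTP1 stood at 263 FPKM in estradiol replicate 4 (others 363 to 378) and at 272 FPKM in control replicate 3 (others 369.9 to 381), and TRIM16 at 50.1 FPKM in estradiol replicate 4 (others 64.2 to 65.2). AKR1B10 stood at 2.24 FPKM in estradiol replicate 2 (others 1.61 to 1.65). AKR1B15 stood at 0.0157 FPKM in control replicate 3 and at 0 in the other control libraries; with 0 to 2 reads per library, any single value above 0 is flagged by construction, and nothing is read from it.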

How the results depend on the processing

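Under all 20 alternatives 0 members and 0 of all genes were called by limma; the lowest adjusted p of a member was 0.791. Of 199 member values, 172 kept their direction and 27 small uncalled values changed sign. The filters, the fit without a variance trend, the replicate block and the batch term cannot change a gene's fold change here. Agreement under those alternatives was thus fixed in advance. With 1 library left out, log2 fold changes ran from -0.18 to -0.08 for AKR1B10, -0.078 to 0.11 for GCLC, -0.15 to 0.042 for GCLM, -0.055 to 0.18 for HMOX1, -0.12 to 0.091 for KEAP1, -0.10 to 0.081 for NFE2L2, -0.028 to 0.0014 for NQO1, -0.095 to 0.20 for SLC7A11, -0.0056 to 0.055 for SRXN1 and -0.053 to 0.032 for TXNRD1, and the member median from -0.062 to 0.013. That median was -0.062 without estradiol replicate 4. Other sign changes were KEAP1 at 0.00016 and TXNRD1 at 0.0053 under quantile normalization, NFE2L2 at -0.026 without estradiol replicate 4 and control replicate 3 together, and KEAP1 at 0.023 and NFE2L2 at -0.0068 with the GC trend removed; the cause was not tested. AKR1B10 could not be tested with a filter at 5 FPKM. Deviations of same-numbered libraries correlated at 0.62, 0.07, -0.48 and -0.74 for numbers 1 to 4. Numbers 3 and 4 each set a library that stood apart beside one that did not. These correlations therefore cannot show whether the numbers pair the libraries. The labels do not say that they do, so no pairing was used in the main fit. With the replicate number as a block 0 members and 0 genes were called. The member median stayed at -0.00036, which such a block cannot change.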

Other observations

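Some genes around the members were separated in the 6 libraries left without estradiol replicate 4 and control replicate 3. There, 7 of 65 tested list genes (10.8%) were lower in every estradiol library than in any control library and 0 were higher, while over all tested genes 4.93% were lower and 4.60% higher. Separation between so few libraries also arises often by chance, and the share among the list genes was not tested. Among the 7 were ABCC1, FECH, SLC48A1, AKR1C3, EPHX1 and NQO2. SLC48A1, a heme transporter, measured 4.02, 3.94 and 3.93 FPKM in estradiol replicates 1 to 3 and 5.03, 4.80 and 4.88 FPKM in control replicates 1, 2 and 4. Its values in the libraries left out were 3.20 FPKM with estradiol and 2.89 FPKM in control. AKR1C3, an aldo-keto reductase, measured 4.02, 3.82 and 3.80 FPKM in estradiol replicates 1 to 3 and 4.62, 4.92 and 4.49 FPKM in control replicates 1, 2 and 4, and stood at 3.83 and 3.80 FPKM in estradiol replicate 4 and control replicate 3. None of the 7 passed limma in the 6 libraries (adjusted p = 0.991554 for each) or with the batch term over 8 libraries (adjusted p = 0.999956 for each).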
